A study of Macaca nemestrina with 15 samples.

Results

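The genes described here are nuclear genes whose proteins copy, package, transcribe or degrade the DNA of mitochondria. They were chosen by name, as a list of 10 symbols known for these roles, and the rule used none of their measured values. The table of gene counts held 9 of the 10 by symbol among its 28865 features: *POLG*, *POLG2*, *TFAM*, *SSBP1*, *POLRMT*, *MGME1*, *TFB2M*, *TOP1MT* and *LONP1*. *RNASEH1* was not analysed here. All 9 passed the filter on low counts, which left 12880 features for testing.

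RNA was sequenced from peripheral blood mononuclear cells (PBMCs), the lymphocytes and monocytes of blood, of 5 female pig-tailed macaques (*Macaca nemestrina*). The animals were dosed orally with islatravir (ISL), an adenosine analog that blocks HIV reverse transcriptase, at 30 mg/kg each week for 12 weeks. Each animal gave a library before dosing, labelled pre-treatment and used as the control, one labelled week 12 and one labelled week 18. There were thus 15 libraries in 3 groups of 5. Week 12 was the end of dosing, and week 18 was listed as 6 weeks after the last dose. Week 18 vs. week 12 therefore compares cells after the drug was stopped with cells at the end of dosing. Every group came from these same 5 animals, no animal without drug was among the libraries, and drug and elapsed time cannot be told apart. The dates written in the library names put the second library 56 or 57 days and the third 84 days after the first, which is not the spacing that the week labels give, and the groups below follow the labels.

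Mitochondrial DNA is copied by a polymerase of its own, made of the catalytic POLG and its accessory subunit POLG2, while SSBP1 coats the single strands. It is read by the RNA polymerase POLRMT, with TFAM, which also packages the DNA, and TFB2M, which opens the promoter. POLG can build some nucleoside analogs into DNA, and toxicity to mitochondria is a known concern for that class of drug. Transcript levels of these genes report neither the activity of the proteins nor the amount of mitochondrial DNA.

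The libraries held 5610597 to 10379572 counts on genes, with a median of 8871860, and the 2 smallest were the week 12 and week 18 libraries of animal Z15303. Levels are given as CPM, a library's counts for a gene relative to its total on genes, scaled by TMM factors between libraries. CPM is not corrected for gene length, so the members' levels are not ranked against each other. Markers of the PBMC populations were present in every group: the summed CPM of the 9 T cell markers ran from 1472 to 2126, of the 7 NK cell markers from 1466 to 4461 and of the 7 monocyte markers from 2040 to 5145. The 6 platelet markers summed to 2707 to 9807 CPM, the 5 neutrophil markers to 134 to 402, the 3 markers of plasmacytoid dendritic cells to 76.8 to 203 and the 7 of proliferating cells to 105 to 233. The 8 B cell markers summed to 255 to 1072 CPM before dosing, 145 to 542 at week 12 and 187 to 448 at week 18, and their mean log2 CPM was lower than before dosing in 5 of 5 animals at both times, by 0.89 ± 0.28 and 0.94 ± 0.37 (SD over animals). The monocyte markers changed by −0.05 ± 0.48 at week 12 and 0.30 ± 0.27 at week 18, higher in 3 and 4 of 5 animals. Those of plasmacytoid dendritic cells changed by −0.31 ± 0.61 and −0.49 ± 0.48, lower in 3 and 4 of 5 animals. No marker list but that of B cells moved one way in 5 of 5 animals against pre-treatment. In bulk RNA, fewer cells of a type and less RNA per cell cannot be told apart, and the part of these shifts in the members' values was not tested.

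None of the 9 genes was called different between time points by edgeR's quasi-likelihood test with Benjamini-Hochberg adjustment over all features. In each of the 3 comparisons, 0 of 9 had an adjusted p under 0.05 and 0 of 9 an unadjusted p under 0.05. Read against all features, this was no more than the background: the share of all features with an adjusted p under 0.05 was 0% at week 12 vs. pre-treatment, 0% at week 18 vs. pre-treatment and 0% at week 18 vs. week 12. The share with an unadjusted p under 0.05 was 1.61%, 1.69% and 0.505%. This fit treats libraries of the same animal as independent. It called no feature, the B cell markers included, so its 0 of 9 does not show that the members were unchanged. DESeq2 and limma-voom without the block called 0 of 9 members in each comparison. Of all 12880 features DESeq2 called 1, 0 and 0, and limma-voom 0 each time. Their 0 of 9 thus does not show that the members were unchanged either. DESeq2 with the animal as a block called 27, 43 and 1 features, and 0 of 9 members each time. With the animal as a block, edgeR called 0.00776% of features (1) at each time against pre-treatment and 0% between the later times, and the unadjusted shares were 4.69%, 5.85% and 2.17%, again with 0 of 9 members under either threshold. A test of all 3 time points at once in that fit called 0.0155% of features (2) and 0 of 9 members.

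**Figure D1:**
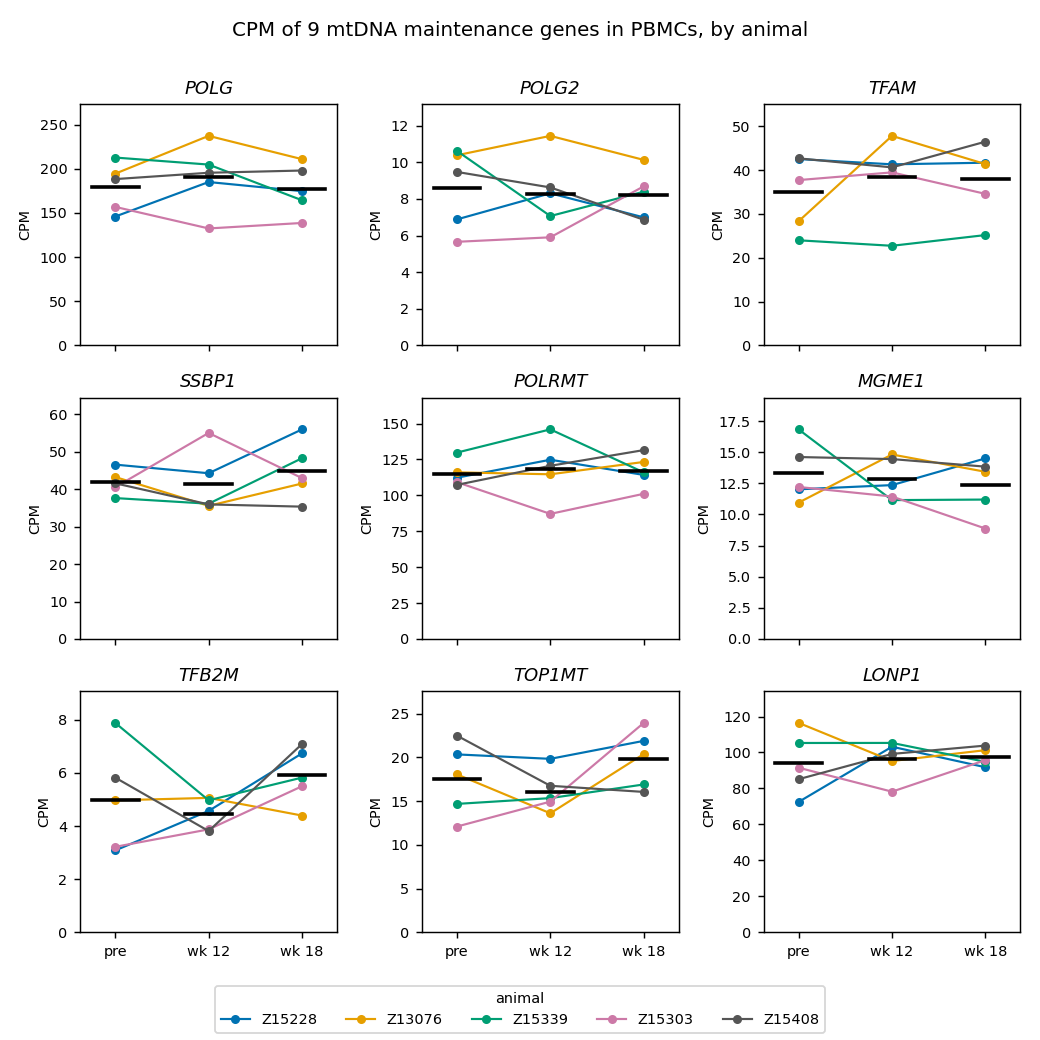
CPM (y axis, starting at 0) of each of the 9 genes before dosing, at week 12 and at week 18 (x axis), with a line for each of the 5 animals and a black bar at the group mean. The groups overlap in every panel, and the *TFAM* line of animal Z15339 lies below the other animals throughout, from 22.7 to 25.2 CPM.

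The levels of every member overlapped between every pair of time points. The share of all features without overlap was 0.28%, 0.334% and 0.101% in the 3 comparisons, and it was 0 of 9 among the members. No member moved the same way in 5 of 5 animals either, where 5.67%, 6.53% and 5.85% of all features did. The 2 comparisons with pre-treatment share their 5 control libraries, so they are not separate evidence.

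The catalytic subunit *POLG* was measured with high counts. Before dosing it stood at 146, 194, 213, 157 and 188 CPM in animals Z15228, Z13076, Z15339, Z15303 and Z15408, the order kept for every list of values here. At week 12 it stood at 185, 237, 205, 132 and 196 CPM, and at week 18 at 175, 211, 164, 139 and 198 CPM. The order of the animals was partly kept: Z15303 was lowest in both later groups, and Z13076 was highest in both. The group means were 180 ± 27.6, 191 ± 38.1 and 177 ± 28.4 CPM (SD, n = 5). The log2 fold change was 0.09 at week 12, with a 95% interval of −0.25 to 0.42, and −0.02 at week 18, from −0.35 to 0.32. With the animal as a block the intervals were −0.15 to 0.30 and −0.25 to 0.21.

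*POLG2*, which holds the polymerase on its template, was sparse, at 5.66 to 11.4 CPM over the 15 libraries and 32 to 95 counts. Its group means were 8.60 ± 2.22, 8.27 ± 2.08 and 8.21 ± 1.35 CPM. Its log2 fold change was −0.05 at week 12 and −0.07 at week 18, with intervals of −0.53 to 0.42 and −0.54 to 0.41. Changes in single animals ran in both directions, from −0.57 in Z15339 at week 12 to 0.60 in Z15303 at week 18. The log2 ratio of *POLG* to *POLG2* was higher than before dosing in 4 of 5 animals at week 12 and in 3 of 5 at week 18, by 0.13 ± 0.29 and 0.02 ± 0.49 (SD over animals), a shift smaller than its spread at both times.

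*SSBP1*, the single-strand binding protein, ranged from 37.6 to 46.5 CPM before dosing and more widely later, from 35.5 to 54.98 CPM at week 12 and from 35.3 to 55.9 CPM at week 18. The top of the range came from Z15303 at week 12 and from Z15228 at week 18, so no single animal set the spread. Group means were 41.9 ± 3.31, 41.4 ± 8.44 and 44.8 ± 7.75 CPM. On the log2 scale it changed by −0.02 at week 12, from −0.33 to 0.29, and 0.10 at week 18, from −0.21 to 0.40.

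*MGME1*, a nuclease that trims the ends of newly copied strands, stood at 13.3 ± 2.38, 12.8 ± 1.70 and 12.4 ± 2.32 CPM. Z15339 was the highest animal before dosing, at 16.8 CPM, and was at 11.2 CPM at both later times, whereas Z13076 went from 10.9 to 14.8 and 13.4 CPM. These opposite courses left a log2 fold change of −0.05 at week 12 and −0.10 at week 18, with intervals of −0.41 to 0.31 and −0.47 to 0.26.

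*TOP1MT*, the topoisomerase that relieves twist in mitochondrial DNA, gave the lowest p of any member in any comparison, though above 0.05 without adjustment. It stood at 20.3, 18.1, 14.7, 12.1 and 22.5 CPM before dosing, at 19.8, 13.6, 15.3, 14.9 and 16.8 CPM at week 12 and at 21.9, 20.4, 16.9, 23.9 and 16.1 CPM at week 18. From week 12 to week 18 it was higher in 4 of 5 animals, by up to 0.67 on the log2 scale in Z15303, and lower by 0.06 in Z15408. The log2 fold change between these times was 0.30 (SE 0.18, edgeR adjusted p = 1.00), with an interval of −0.08 to 0.68. With the animal as a block edgeR gave 0.30 (SE 0.17, adjusted p = 1.00), from −0.05 to 0.65. Against pre-treatment it was −0.12 at week 12 and 0.17 at week 18, and the latter rested on Z15303, with an increase of 0.97, since the value without that animal was −0.0005.

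**Figure D2:**
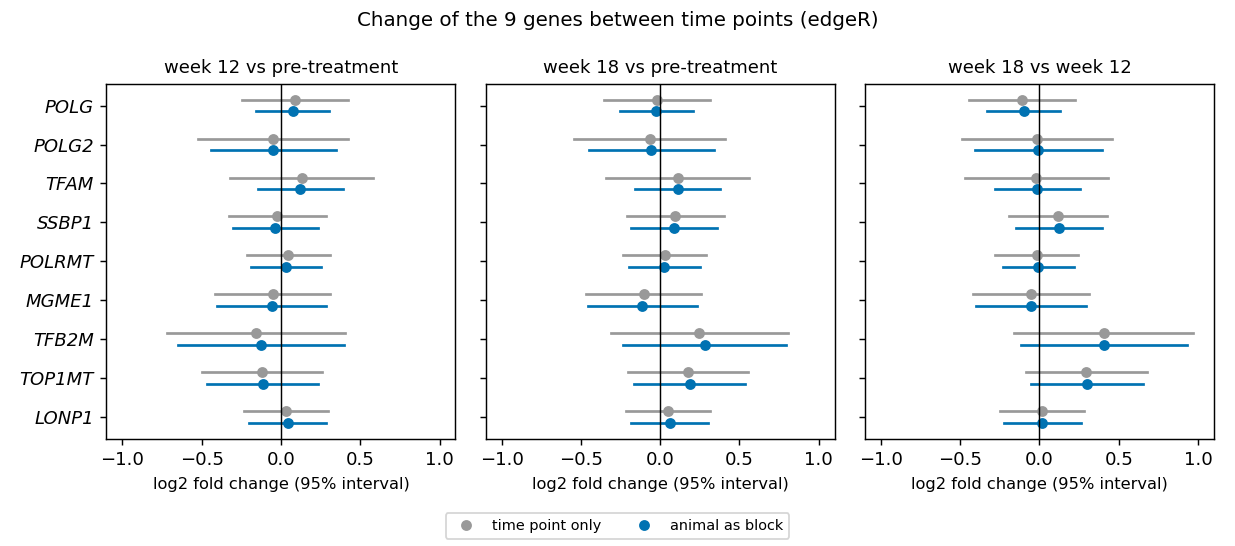
Log2 fold change (x axis) of each member (rows) in the 3 comparisons (panels), as points with 95% intervals, for edgeR with the time point only (grey) and with the animal as a block (blue). Every interval spans 0, and those of *TFB2M* are the widest. With the time point only they reach from −0.72 to 0.40 at week 12 vs. pre-treatment and from −0.16 to 0.97 at week 18 vs. week 12.

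*POLRMT*, the RNA polymerase, had the smallest standard error of any member in each comparison, though only narrowly. It ranged from 87.1 CPM in Z15303 to 146 CPM in Z15339, both at week 12, and its group means were 115 ± 8.94, 119 ± 21.2 and 117 ± 11.3 CPM. Its values on the log2 scale were 0.05 at week 12, from −0.22 to 0.31, and 0.03 at week 18, from −0.23 to 0.29. With the animal as a block the bounds were −0.19 to 0.25 in both.

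*TFAM*, which coats and bends mitochondrial DNA and recruits the polymerase to promoters, had the widest separation of animals. It stood at 42.5, 28.3, 24.0, 37.7 and 42.7 CPM before dosing, at 41.3, 47.8, 22.7, 39.5 and 40.6 CPM at week 12 and at 41.7, 41.4, 25.2, 34.6 and 46.5 CPM at week 18. Z15339 was the lowest animal each time, and Z13076 moved from the second lowest before dosing to the highest at week 12. Group means were 35.1 ± 8.50, 38.4 ± 9.33 and 37.9 ± 8.26 CPM. The log2 fold change was 0.13 at week 12, from −0.32 to 0.58, and 0.11 at week 18, from −0.34 to 0.56. The block narrowed these to −0.15 to 0.39 and −0.16 to 0.38. Z13076 carried the week 12 value, with a log2 change of 0.75. Without it the fold change was −0.03 at week 12, where 3 of the 5 animals were lower than before dosing, and 0.01 at week 18.

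*TFB2M*, the factor that melts the promoter, was the sparsest member, with 21 to 66 counts a library. It stood at 3.08, 4.97, 7.88, 3.22 and 5.82 CPM before dosing, at 4.57, 5.06, 4.97, 3.87 and 3.81 CPM at week 12 and at 6.73, 4.39, 5.82, 5.50 and 7.08 CPM at week 18. Its spread before dosing, a coefficient of variation of 39.8%, was above the 15.1% that counting alone would give, while at week 12 the spread of 13.2% was under the counting error of 16.2%. Group means were 4.99 ± 1.99, 4.46 ± 0.590 and 5.91 ± 1.06 CPM. The largest fold change of any member was its 0.40 (SE 0.27) at week 18 vs. week 12, higher in 4 of 5 animals, with an interval of −0.16 to 0.97 and an edgeR adjusted p of 1.00. Against pre-treatment it was −0.16 at week 12 and 0.25 at week 18. The latter was 0.07 without Z15228, 0.16 without Z15303 and 0.48 without Z15339. Single animals ranged at week 18 from −0.42 in Z15339 to 1.07 in Z15228.

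*LONP1*, the matrix protease that degrades TFAM among other proteins, stood at 94.2 ± 17.2, 96.2 ± 10.8 and 97.5 ± 4.93 CPM, and its range closed from 72.5 to 116 CPM before dosing to 91.8 to 104 CPM at week 18. The highest animal before dosing, Z13076, went down by 0.20 on the log2 scale by week 18 and the lowest, Z15228, went up by 0.34. Its log2 fold change was 0.03 at week 12, from −0.23 to 0.30, and 0.05 at week 18, from −0.21 to 0.31. The log2 ratio of *TFAM* to *LONP1* changed by 0.08 ± 0.62 and 0.05 ± 0.44 at these times, and was higher in 2 of 5 animals each time.

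Seen as a list, the members' median log2 fold change was −0.02, 0.05 and −0.01 in the 3 comparisons, beside 0.00, 0.00 and −0.00 over all features. Members with a positive value numbered 4, 6 and 4 of 9. The members' mean log2 CPM changed by −0.004 ± 0.15, 0.07 ± 0.16 and 0.07 ± 0.05 (SD over animals). It was higher in 3, 3 and 5 of 5 animals, and no test was made of it. In the last comparison *TFB2M* and *TOP1MT* had the largest rises, by a mean of 0.38 and 0.29 over animals. The log2 fold change was below 0 for 5 of the 9, so the list did not rise as a whole. The animals were not alike at week 18: 8 of the 9 genes were higher than before dosing in Z15228 and 6 of 9 were lower in Z15339. The 95% intervals bound what these libraries could show. At week 12 vs. pre-treatment they ran, over all members, from −39.3% to 49.7% without the block and from −36.1% to 31.7% with it. At week 18 vs. pre-treatment the outer bounds with the block were −27.2% and 73.6%, and at week 18 vs. week 12 they were −24.6% and 90.2%, the upper bound being that of *TFB2M* both times.

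Whether the animals differed was asked next. A test of the 5 animals in the block fit was chosen after the data were seen. It gave an adjusted p under 0.05 (edgeR) for 30.9% of all features (3983) and for 2 of the 9 members. With 9 genes, that count is near the share over all features. *TFAM* gave an adjusted p of 0.00581 (edgeR), with animal means from 24.0 CPM in Z15339 to 43.3 CPM in Z15408, and *POLG* gave 0.0294 (edgeR), from 143 CPM in Z15303 to 214 CPM in Z13076. The SD of the animal means of *TFAM* was 0.34 on the log2 scale and the residual SD 0.19, and for *POLG* the values were 0.23 and 0.16. Each call depended on the animals used. Without Z15339 the adjusted p of *TFAM* was 0.690 (edgeR), and that of *POLG* was 0.330 without Z15303 and 0.0529 without Z13076. These were the lowest or highest animals for the gene, so a weaker result was likely in advance. Without Z15303 the test also called fewer features, 2284.

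**Figure D3:**
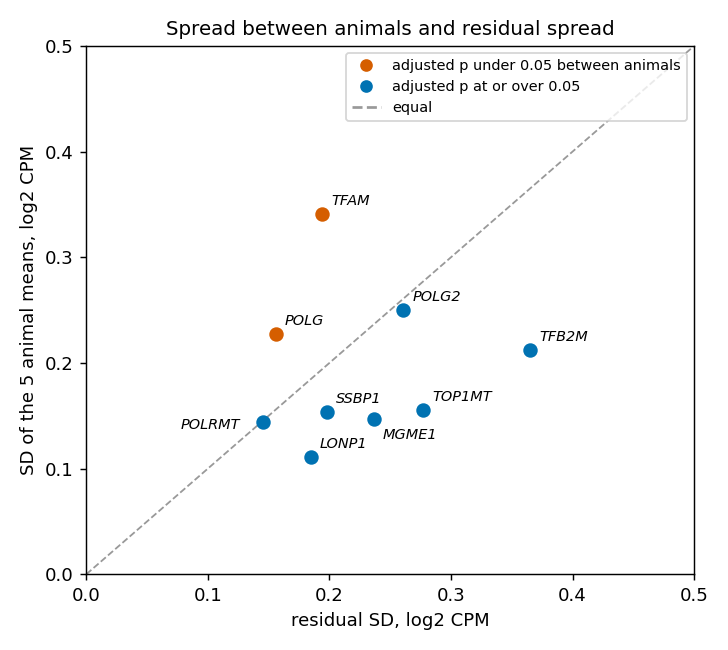
SD of the 5 animal means (y axis) against the residual SD within animals (x axis) for the 9 members, both in log2 CPM, with the dashed line where they are equal and orange for an adjusted p under 0.05 between animals. *TFAM* (0.34 against 0.19) and *POLG* (0.23 against 0.16) lie above the line.

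Z15303 had the lowest animal mean for 6 of the 9 genes: *POLG*, *POLG2*, *POLRMT*, *MGME1*, *TFB2M* and *LONP1*. This animal also gave the 2 smallest libraries, and the part of depth in its values was not tested. The library names gave Z15339, Z15303 and Z15408 identical sampling dates, so the spread among these 3 is not one of sampling date, whereas for Z15228 and Z13076 animal and date cannot be told apart. Among the 3, *TFAM* in Z15339 was below both other animals at every time.

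The 15 libraries were also used to describe which members and which other features varied together, without a test, since libraries of an animal and differences in cell makeup are shared by all genes. Among member pairs Pearson's r over log2 CPM was highest for *POLG* with *POLRMT*, at 0.72, and lowest for *POLG* with *SSBP1*, at −0.68. Over all features, the closest to *POLG* were *TUBGCP6* and *ADD1*, with r of 0.965 and 0.961. The closest to *TFAM* was *ITGA1*, an integrin subunit, at 0.899, the closest to *POLRMT* was *THOP1* at 0.919, and the closest to *SSBP1* was *BLOC1S6* at 0.862. For the sparse *TFB2M* the closest, *GPATCH1*, reached 0.802.

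The wider machinery around these genes was examined through lists chosen by function. Of 73 nuclear genes listed, 59 were in the table and 58 were tested. None had an adjusted p under 0.05 (edgeR) in any comparison. The share of all 12880 features was 0% each time in this fit without the block. The count thus does not show that the wider machinery was unchanged. The 9 other genes of mitochondrial DNA replication and repair had median log2 fold changes of 0.03 at week 12 and −0.08 at week 18, the 19 of transcription and RNA processing 0.01 and 0.02, and the 6 matrix proteases and chaperones 0.03 and 0.04. The 11 genes of nucleotide supply stood at 0.03 and 0.08, and the 7 markers of mitochondrial mass at 0.01 and 0.01. The 6 biogenesis regulators stood at −0.12 and −0.10. Of these, 5 of 6 were below 0 each time, against the same control libraries, and 4 and 5 of 6 with the animal as a block. Among the 9 replication and repair genes, 4 and 7 were below 0 without the block. RNAs encoded by mitochondrial DNA itself were not analysed here.

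*ENDOG*, a nuclease of the mitochondrial intermembrane space, was the only one of the 58 with an unadjusted p under 0.05. A count of 1 of 58 is near the share of all features under that threshold, 1.61% at week 12 and 1.69% at week 18, and the gene is described because the rule for naming picked it by this p. It stood at 56.6, 54.7, 57.9, 53.3 and 46.0 CPM before dosing, at 66.5, 61.2, 60.8, 60.2 and 67.3 CPM at week 12 and at 60.0, 67.5, 62.6, 58.7 and 67.7 CPM at week 18. Every later library was above every pre-treatment library, so the groups did not overlap, as for 0.28% and 0.334% of all features. The log2 fold change was 0.24 (SE 0.09, edgeR adjusted p = 1.00) at week 12 and 0.24 (SE 0.09, edgeR adjusted p = 1.00) at week 18, higher in 5 of 5 animals at both times against the same control libraries, as 5.67% and 6.53% of all features moved one way in every animal, and 0.00 between the later times. It did not pass the adjustment over all features. Without Z15408, the animal with the lowest control value, the fold change was 0.16 at both times, and the unadjusted p was no longer under 0.05, as was also so without Z15228 at week 12 and without Z13076 at week 18. B cell markers were lower in the same libraries, by the values given above, and their part was not tested.

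**Figure D4:**
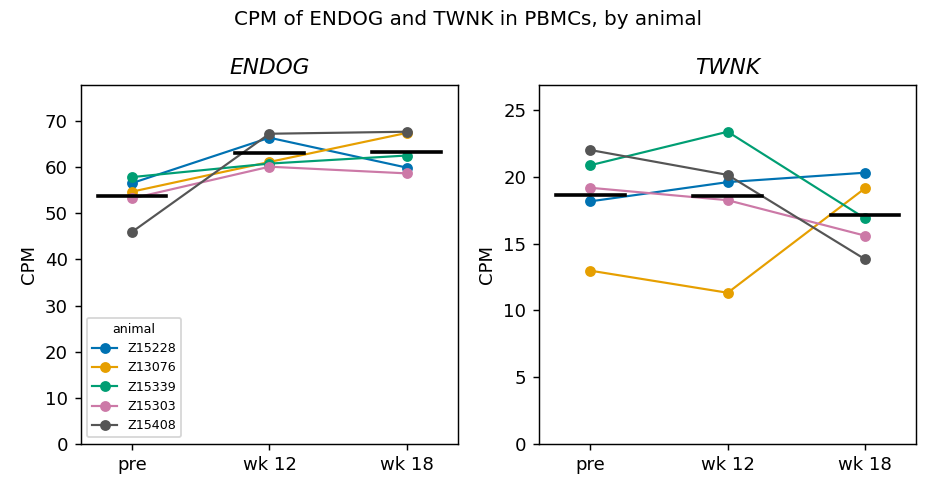
CPM (y axis, starting at 0) of *ENDOG* and *TWNK* before dosing, at week 12 and at week 18, with a line for each of the 5 animals and a black bar at the group mean. The later *ENDOG* values, 58.7 to 67.7 CPM, all lie above the pre-treatment values of 46.0 to 57.9 CPM, while those of *TWNK* overlap.

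*TWNK*, the helicase that unwinds mitochondrial DNA ahead of POLG, stood at 18.2, 12.98, 20.9, 19.2 and 22.0 CPM before dosing, at 19.6, 11.3, 23.4, 18.3 and 20.2 CPM at week 12 and at 20.3, 19.2, 16.9, 15.6 and 13.8 CPM at week 18. Z13076 was the lowest animal at the first 2 times and not at week 18, where the other animals except Z15228 were lower than before dosing. Its fold changes on the log2 scale were −0.01, −0.12 and −0.11 in the 3 comparisons. These values depended on the animals used. A fit was made on the 3 animals of shared dates, with the animal as a block. There *TWNK* was at −0.41 at week 18 vs. pre-treatment and −0.42 at week 18 vs. week 12. The unadjusted p was under 0.05 in both, with edgeR adjusted p of 0.218 and 1.00. That fit put 2278 and 205 of 12996 features under the same unadjusted threshold. Among 21 settings, *TWNK* had an unadjusted p under 0.05 in 2 for each of these comparisons. Without Z15408, in a block fit over 4 animals, its log2 fold changes were 0.05 and 0.03.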

How the data were processed

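The authors aligned reads with STAR (version 2.7.9a per the labels) to the Ensembl genome of *M. nemestrina* and deposited raw gene counts from its gene counting. The strand setting was not given in the sources used here, and the counts of overlapping genes may depend on it. No positions, lengths or sequences of the members were used here. Counts were analysed in R 4.3.3 with edgeR 4.0.16: features were filtered (filterByExpr, minimum count 10), libraries scaled by TMM, and time points compared in a quasi-likelihood fit over all 15 libraries, with Benjamini-Hochberg adjustment and a threshold of 0.05. CPM used a prior count of 2 on the log2 scale only. Each standard error was taken from the fold change and its F statistic (size of the log2 value over root F), and 95% intervals used the fit's degrees of freedom. P-values without the block treat the 15 libraries as independent, so they mix the spread between animals with that within them. P-values with the block rest on the spread left within the 5 animals.

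Pairing comes from the animal names. Deviations from group means correlated at a mean r of 0.551 for the same animal, and −0.137 for different animals at different times, so a fit with the animal as a block was run too. Alternatives were DESeq2 1.42.0 and limma-voom (limma 3.58.1), other scalings, no filter, the 3 animals of shared dates and leaving out each animal. The test between animals and block fits with a second change were added after seeing the data. The pipeline was tested on simulated data. The 9 members and the gene lists were chosen with earlier results of these data known. All members were named, and from the other lists those of unadjusted p under 0.05 and the helicase *TWNK*.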

Additional observations from a re-analysis of the deposited data

Results flagged for a closer look

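Among 27 groups of 5 values (9 genes at 3 times), 1 held a value far from the others by Dixon's test, where chance flags about 1 in 20. It was the lowest *TFAM* value at week 12, 22.7 CPM in Z15339, with 39.5 to 47.8 CPM in the other animals. The same animal had the lowest *TFAM* before dosing and at week 18.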

How the results depend on the processing

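No alternative called any of the 9 genes between time points. The animal as a block changed no member's call. Features called at week 12 numbered 0, and 1 with the block, 1 with DESeq2, 27 with DESeq2 and the block, 7 with the block in the 3 animals of shared dates and 1 with the block without TMM. At week 18 vs. pre-treatment they numbered 0, and 1, 43, 7 and 10 with the block, with DESeq2 and the block, with the block in those 3 animals and with the block without TMM. DESeq2 with the block called 1 at week 18 vs. week 12. Leaving out each animal in the block gave 0 to 6, 0 to 17 and 0 to 0. The causes were not tested. In the 3 animals of shared dates, signs turned at week 12 for *POLG* (−0.0502), *TFAM* (−0.00972) and *SSBP1* (0.0947), and at week 18 vs. week 12 for *POLG2* (0.140), *TFAM* (0.04996) and *SSBP1* (−0.000429).

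Leaving out each animal in turn moved the log2 fold change at week 12 over these ranges: *POLG2* −0.120 to 0.0894, *TFAM* −0.0293 to 0.190, *SSBP1* −0.144 to 0.0389, *MGME1* −0.170 to 0.0972, *TFB2M* −0.291 to 0.0240 and *LONP1* −0.0676 to 0.124. At week 18 the ranges were *POLG* −0.0706 to 0.0773, *POLG2* −0.199 to 0.0303, *TFAM* 0.00976 to 0.177, *TFB2M* 0.0723 to 0.477, *POLRMT* −0.0377 to 0.0823, *MGME1* −0.197 to 0.0320, *TOP1MT* −0.000499 to 0.349 and *LONP1* −0.00685 to 0.124. At week 18 vs. week 12 they were *POLG2* −0.131 to 0.0594, *TFAM* −0.0827 to 0.0390, *POLRMT* −0.0638 to 0.0710, *MGME1* −0.129 to 0.00289 and *LONP1* −0.0433 to 0.0657. The test between animals called 2284 (without Z15303) to 4291 features and 1 to 2 members, with an adjusted p (edgeR) of 0.033 to 0.330 for *POLG* and 0.000669 to 0.690 for *TFAM*. In block fits without an animal, an unadjusted p under 0.05 was found for *TOP1MT* at week 18 vs. week 12 without Z15408, where edgeR gave 0.38 (adjusted p = 1). Counts of 21 to 95 a library limit *TFB2M* and *POLG2*, whose intervals were the widest among the 9 with the block at week 12.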
